A study of Saccharomyces cerevisiae with 4 samples.

Results

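The chromosome ends of budding yeast were described here in the stretch from 3 to 20 kb inside each end, with histone H3 phosphorylated at threonine 45 (H3T45p) and total H3 measured by chromatin immunoprecipitation and sequencing (ChIP-seq). Windows of 150 bp were members when their distance to the nearer end of the chromosome, as listed in the deposited tables, was 3 kb or more and under 20 kb. Chromosome 3 was left out by the same rule. The rule uses position only and no measured value. It gave 3420 of 81046 windows, 114 at each of 30 ends of 15 chromosomes. They were set against the 70353 windows that lie 40 kb or more from an end of the same chromosomes, called the interior below.

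The study compared BY4741 cells treated with 200 mM hydroxyurea for 2 h with untreated BY4741 cells, both grown in rich medium (YPD) to mid-log phase. BY4741 is a common haploid laboratory strain, and hydroxyurea inhibits ribonucleotide reductase, so that deoxynucleotides run short and replication forks stall. One polyclonal antibody was raised against H3 phosphorylated at threonine 45 and the other against the C terminus of H3. The 4 groups were H3T45p in hydroxyurea, H3 in hydroxyurea, H3T45p untreated and H3 untreated, each with 1 library. Both hydroxyurea libraries carry the number 1 in their titles and both untreated libraries the number 2. Should the numbers stand for batches, treatment cannot be told apart from batch. No input or mock library was analysed, so the amount of DNA behind each window was not measured.

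The regions next to budding yeast telomeres are packed into silent chromatin by the Sir proteins, carry the repeated X and Y′ elements, and as a rule replicate late in S phase. They hold gene families that are copied from end to end and that serve growth on unusual nutrients, stress and cell surface traits. Threonine 45 of H3 sits close to the entry and exit of DNA at the nucleosome, and Cdc7, the kinase that fires replication origins, is known to phosphorylate it in yeast. In the order of genes in the R64 annotation, the 10 protein-coding genes nearest each of the 30 ends make up 300 of 5834 on these chromosomes. They include 18 of the 23 PAU genes, which encode cell wall mannoproteins of the seripauperin family, 11 of the 12 COS genes, all 8 YRF1 genes, which encode the helicase of the Y′ element, and all 6 MAL genes of maltose use. They also include 6 of the 16 HXT genes for hexose transport, 3 of the 5 FLO genes for flocculation, all 4 AAD genes for aryl alcohol dehydrogenases and all 3 ARR genes of arsenic resistance. The build of the deposited files is not named, so no window was assigned to a gene, and positions count from 1 in the coordinates of the files.

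The deposited signal is a read count per window divided by 1 factor per library. The libraries held 23588153 reads in windows (H3T45p) and 28690293 (H3) in hydroxyurea, against 25105783 (H3T45p) and 27319637 (H3) in untreated cells. One factor per library means that the total of H3T45p per cell is not measured, and every difference below is relative to the rest of the genome. The ends are regions of the same 4 libraries and not replicates, so no test of the conditions was possible and none is given. Differences are described by their size, by the number of ends that share a direction and by the interior of the same libraries.

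Much of the subtelomeric sequence carried no reads at all. Of the 3420 subtelomeric windows, 852 (24.9%) were at 0 in all 4 libraries, against 2.45% of interior windows. A window was kept where H3 reached 25% or more of the genome median in both conditions, since a ratio to H3 needs H3. This kept 2059 subtelomeric windows (60.2%), against 89.5% of interior windows. The remaining 509 (14.9%) had reads but low H3. The ends differed widely in this respect. Between 6 and 110 windows of 114 were kept per end, with a median of 82, and 10 ends kept fewer than 50. Those 10 ends held 667 of the 852 windows at 0. The left end of chromosome 9 kept 6 windows, with an unbroken run of 12.9 kb at 0, and the left end of chromosome 10 kept 8, with a run of 7.2 kb. At 6 ends no window was at 0. The sources used here do not give how reads from repeated sequence were treated, and its part in these gaps was not tested.

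Both signals were lower at most subtelomeres in hydroxyurea than in untreated cells. In kept windows the median H3T45p signal was 232 in hydroxyurea against 287 in untreated cells, where the interior had 320 in hydroxyurea against 315 in untreated cells. The median H3 signal was 234 in hydroxyurea against 262 in untreated cells, where the interior had 312 in hydroxyurea against 314 in untreated cells. The subtelomeres thus lay below the interior in all 4 libraries, and the distance was wider in hydroxyurea. Subtelomeric windows took 2.36% of the nuclear H3T45p reads in hydroxyurea and 2.84% in untreated cells, and 2.37% of the nuclear H3 reads in hydroxyurea and 2.61% in untreated cells.

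For each end the signals of its kept windows were averaged, and log2 differences were taken after adding 28.3, which is 10% of the genome median. The log2 difference of H3T45p, hydroxyurea over untreated, had a median of -0.21 over the 30 ends (range -0.37 to 0.48) and was below 0 at 22 of them. The interior on the same side of the same chromosome had a median of 0.14, and 26 of 30 ends lay below their own interior (median distance over all ends -0.32). For H3 the median was -0.20 (range -0.42 to 0.20), with 29 of 30 ends below 0. The H3 interior median was -0.06, and again 26 of 30 ends lay below their own interior (median distance -0.16). At 22 ends both signals were lower in hydroxyurea. Scaled to the total of nuclear reads in place of the deposited factors, the medians over ends were -0.32 for H3T45p and -0.15 for H3, so both directions held.

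**Figure D1:**
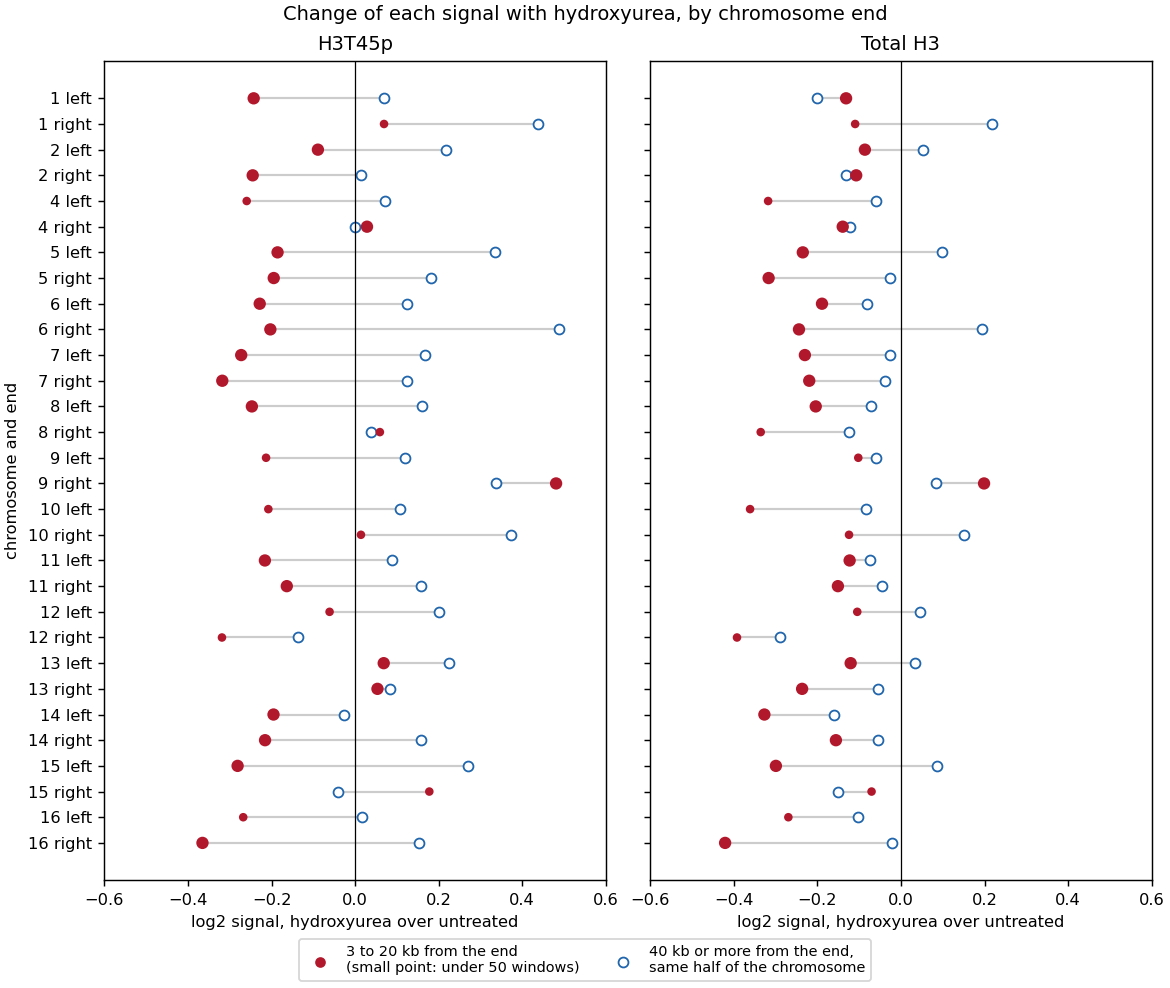
The log2 difference of H3T45p (left panel) and of total H3 (right panel), hydroxyurea over untreated, for each of 30 chromosome ends (rows). Filled red points are the stretch 3 to 20 kb from the end (small where fewer than 50 windows were kept) and open blue points are the interior on the same side. H3T45p lay left of its interior at 26 of 30 ends, and H3 lay left of 0 at 29.

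The right end of chromosome 9 (419851 to 436950) stood apart from all other ends in both signals. With 110 kept windows and none at 0, its mean H3T45p signal was 504 in hydroxyurea against 353 in untreated cells, 1.40 times as high in hydroxyurea. Its mean H3 signal was 491 in hydroxyurea against 424 in untreated cells, and it was the only end with more H3 in hydroxyurea. The log2 differences were 0.48 for H3T45p and 0.20 for H3. The higher H3T45p signal held along the whole stretch, between 0.21 and 0.64 in each of the 12 successive 1.5-kb steps, and between 0.33 and 0.72 in the 16 further steps out to 45 kb. The neighbouring interior of this chromosome side was also higher for H3T45p than most, at 0.34.

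The other end of the range was held by the right end of chromosome 16 (928051 to 945150). Its mean H3T45p signal was 251 in hydroxyurea against 331 in untreated cells, and its mean H3 signal was 240 in hydroxyurea against 331 in untreated cells. The log2 differences of -0.37 and -0.42 were the lowest of all ends for both signals. The right end of chromosome 12 (1058101 to 1075200) came next, with 278 in hydroxyurea against 354 in untreated cells for H3T45p, and 213 in hydroxyurea against 288 in untreated cells for H3. The right end of chromosome 7 followed for H3T45p, with 228 in hydroxyurea against 291 in untreated cells. Here H3T45p and H3 were lower together, and the log2 ratio between them differed by 0.06 at chromosome 16 and 0.07 at chromosome 12. Without the 2 kept windows under peaks at each of these ends, it differed by 0.0094 at chromosome 16 and by -0.18 at chromosome 12.

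Between those extremes, H3T45p was higher in hydroxyurea at 8 ends. Besides the right end of chromosome 9 these were the right ends of chromosomes 15 (0.18), 1 (0.07), 8 (0.06), 13 (0.05), 4 (0.03) and 10 (0.01) and the left end of chromosome 13 (0.07). Apart from the first, each of them had less H3 in hydroxyurea. The right ends of chromosomes 9, 15, 8 and 4 were the only ends above their own interior for H3T45p. Those of chromosomes 8 and 4 were above it by only 0.02 and 0.03. With windows under peaks left out, 28 of 30 ends lay below their own interior. For H3 the ends above their own interior were the right ends of chromosomes 9, 15 and 2 and the left end of chromosome 1. Of the 8 ends, those of chromosomes 15, 1, 8 and 10 kept only 33, 19, 27 and 30 windows.

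The ends of 1 chromosome did not resemble each other. Over 15 chromosomes the left and right values had a Pearson correlation of -0.08 for the H3T45p difference, 0.11 for H3 and 0.02 for the difference of the ratio. On chromosome 9 the left end (6 kept windows) had a mean H3T45p signal of 211 in hydroxyurea against 249 in untreated cells, in the opposite direction to the right end. On chromosome 16 the left end resembled the right, with 183 in hydroxyurea against 225 in untreated cells. In the difference of each signal, and far less in the ratios, ends resembled the stretch next to them. The H3T45p difference had the same sign at 3 to 20 kb and at 20 to 40 kb for 24 of 30 ends (Pearson correlation 0.77), and the H3 difference for 27 of 30 (0.66). For H3, 29 of 30 ends were below 0 at 3 to 20 kb and 26 at 20 to 40 kb, so most signs had to match. The difference of the ratio had the same sign at 19 of 30 ends (0.31), the untreated ratio at 20 (0.31) and the hydroxyurea ratio at 15 (-0.45). Spearman correlations were 0.66 for the H3T45p difference, 0.53 for the H3 difference and 0.33 for the difference of the ratio. They were 0.23 for the untreated ratio and 0.005 for the hydroxyurea ratio, so ranks showed no inverse relation in the last. These points share the same 4 libraries, and neighbouring stretches also share the chromosome.

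**Figure D2:**
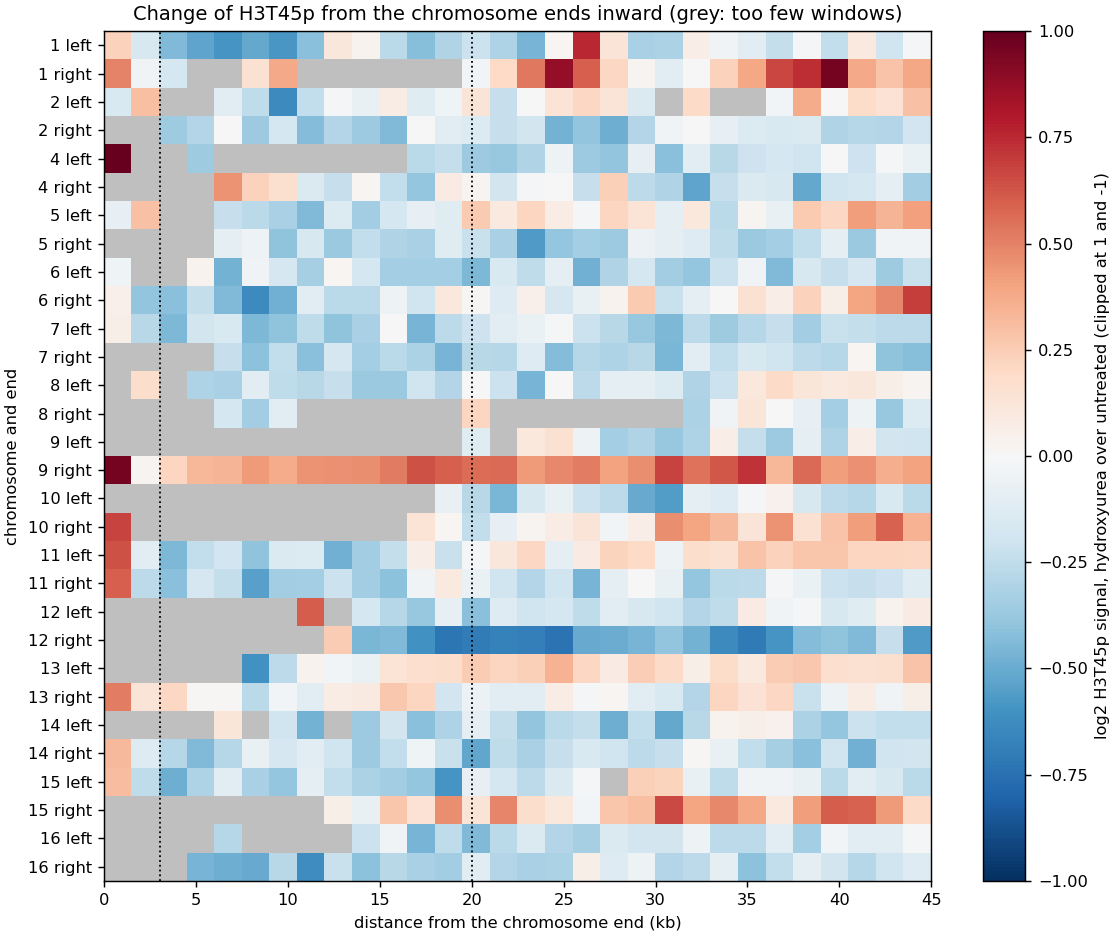
The log2 difference of the H3T45p signal, hydroxyurea over untreated (colour, limited to -1 to 1), in steps of 1.5 kb from each chromosome end (rows) to 45 kb; grey steps had too few kept windows and dotted lines mark 3 and 20 kb. The row of the right end of chromosome 9 is red throughout, while most rows are blue between the dotted lines.

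With the deposited factors, which set where the even point lies, H3T45p relative to H3 was close to even at most subtelomeres in both conditions. Over the 30 ends the log2 ratio of H3T45p to H3 had a median of -0.01 in hydroxyurea (range -0.17 to 0.60) and -0.03 in untreated cells (range -0.25 to 0.27). The interior had 0.03 in hydroxyurea against -0.15 in untreated cells. In untreated cells 24 of 30 ends lay above their own interior (median distance over all ends 0.13). In hydroxyurea 20 of 30 lay below it (median distance -0.05). The subtelomeres were thus relatively richer in H3T45p than the interior in untreated cells, and slightly poorer in hydroxyurea.

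The difference of this ratio, hydroxyurea minus untreated, had a median over ends of 0.05 (range -0.14 to 0.39), against 0.18 in the interior. It lay below the interior on the same side at 25 of 30 ends (median distance over all ends -0.12). Whether the ratio itself was higher or lower in hydroxyurea depended on the scale and on the averaging. It was higher at 19 of 30 ends with the deposited factors and at 7 of 30 when scaled to total nuclear reads, which shifts the median of all windows by -0.17. With the deposited factors and the mean of the log2 ratios of windows in place of the ratio of mean signals, it was higher at 9 of 30 ends, with a median of -0.087. The median distance to the interior was -0.12 under both scales and -0.16 with the mean of the log2 ratios. The 20 ends with 50 or more kept windows had a median of 0.01, with 10 of 20 higher and 17 of 20 below their interior. Counting error is small at this depth. The 95% exact binomial intervals of the ratio of an end spanned 0.04 to 0.25 on the log2 scale, with a median of 0.05, and cover counting error only.

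**Figure D3:**
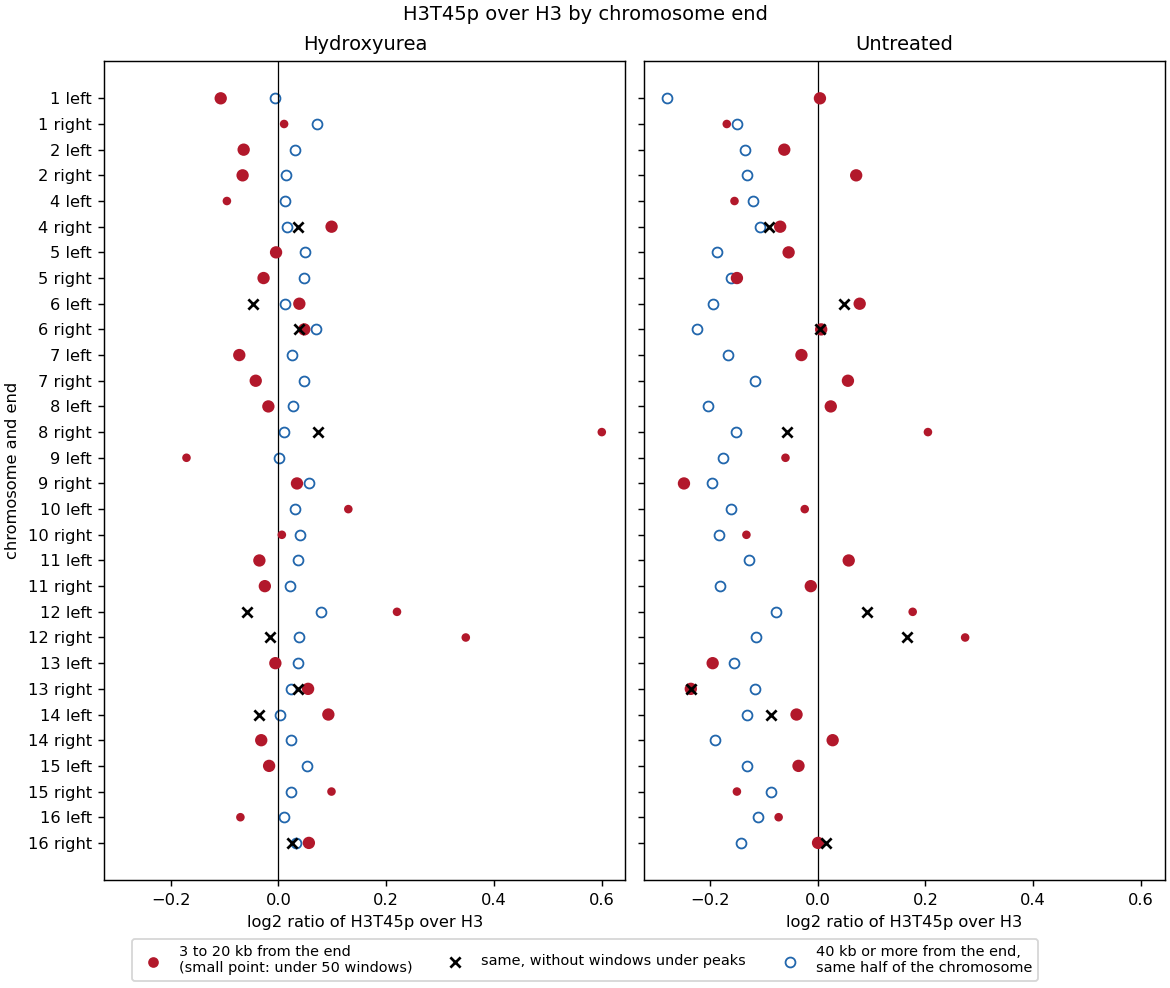
The log2 ratio of H3T45p over H3 in hydroxyurea (left panel) and in untreated cells (right panel) for each of 30 chromosome ends (rows). Filled red points are the stretch 3 to 20 kb from the end (small where fewer than 50 windows were kept), crosses are the same stretch without windows under the authors' peaks, and open blue points are the interior on the same side; in untreated cells 24 of 30 red points lie right of their blue point.

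At the 3 ends with the highest ratio in hydroxyurea, a few windows carried most of it. The right end of chromosome 8 (542551 to 559650) had a log2 ratio of 0.60 in hydroxyurea against 0.20 in untreated cells from 27 kept windows. Without the 2 kept windows under the authors' H3T45p peaks it had 0.07 in hydroxyurea against -0.06 in untreated cells. The right end of chromosome 12 had 0.35 in hydroxyurea against 0.27 in untreated cells, and without the windows under peaks -0.02 in hydroxyurea against 0.17 in untreated cells. The left end of chromosome 12 (3001 to 20100) had 0.22 in hydroxyurea against 0.18 in untreated cells, and without them -0.06 in hydroxyurea against 0.09 in untreated cells. The other ends among the 5 highest were the left end of chromosome 10 (0.13, from 8 windows) and the right end of chromosome 4 (0.10) in hydroxyurea, and the left end of chromosome 6 (0.08) and the right end of chromosome 2 (0.07) in untreated cells.

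The lowest ratios in hydroxyurea were at the left ends of chromosomes 9 (-0.17), 1 (-0.11), 4 (-0.10), 7 (-0.07) and 16 (-0.07). In untreated cells they were at the right ends of chromosomes 9 (-0.25), 13 (-0.23) and 1 (-0.17) and the left ends of chromosomes 13 (-0.19) and 4 (-0.15). The difference of the ratio was highest at the right ends of chromosomes 8 (0.39), 13 (0.29), 9 (0.28) and 15 (0.25) and the left end of chromosome 13 (0.19). At both ends of chromosome 13 H3T45p was slightly higher in hydroxyurea while H3 was lower. The right end of chromosome 13 (904351 to 921450) had 361 in hydroxyurea against 347 in untreated cells for H3T45p, and 346 in hydroxyurea against 413 in untreated cells for H3. The difference was lowest at the right end of chromosome 2 (-0.14), the left ends of chromosomes 1 and 9 (both -0.11), the right end of chromosome 7 (-0.10) and the left end of chromosome 11 (-0.09).

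At the right end of chromosome 2 (793051 to 810150) the mean H3T45p signal was 291 in hydroxyurea against 350 in untreated cells, and the mean H3 signal 306 in hydroxyurea against 332 in untreated cells. The left end of chromosome 1 had 238 in hydroxyurea against 286 in untreated cells for H3T45p, and 258 in hydroxyurea against 285 in untreated cells for H3. At both, H3T45p was lower by more than H3. As a check, odd and even windows of each end gave differences of the ratio with a Pearson correlation of 0.78 and a Spearman correlation of 0.81 over 30 ends. They had the same sign at 26 ends and were a median of 0.05 and at most 0.28 apart. They come from the same libraries, so this says nothing of how far another culture would differ.

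By band medians, the deficit of H3T45p in hydroxyurea was deepest nearest the end. The median over ends of the H3T45p log2 difference was -0.34 at 3 to 5 kb (13 ends with 3 or more kept windows), -0.25 at 5 to 10 kb (25 ends), -0.22 at 10 to 15 kb (24 ends) and -0.18 at 15 to 20 kb (30 ends). It was -0.12 at 20 to 40 kb and 0.14 in the interior. H3 showed no such order, with -0.15, -0.22, -0.19 and -0.15 in the same 4 bands, -0.17 at 20 to 40 kb and -0.06 in the interior. Over only the 13 ends with a value at 3 to 5 kb, a comparison chosen after seeing the data, the H3T45p medians in the 4 bands were -0.34, -0.25, -0.23 (12 ends) and -0.17. Steps of 1.5 kb were less orderly, with -0.19 from 6 kb and -0.32 from 7.5 kb. The H3 signal differed between bands too, with untreated medians of 259, 294, 283 and 337 in the 4 bands and 384 in the interior. The bands were not matched for H3, so distance and H3 level cannot be told apart here.

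Among these bands, again not matched for H3, the ratio in untreated cells was highest nearest the end as well. It had a median of 0.09 at 3 to 5 kb, -0.01 at 5 to 10 kb, 0.01 at 10 to 15 kb, -0.06 at 15 to 20 kb, -0.11 at 20 to 40 kb and -0.15 in the interior. In hydroxyurea the ratio stayed between -0.05 and 0.03 over all of these bands. The outermost 1.5 kb of the chromosomes, outside the stretch described here, went the other way. There H3T45p was higher in hydroxyurea (median 0.33 over 15 ends) while H3 was lower (-0.23), and the ratio had a median of 0.75 in hydroxyurea against 0.19 in untreated cells. In the next 1.5 kb the H3T45p difference was -0.11 (13 ends), and the ratio was -0.06 in hydroxyurea against 0.16 in untreated cells.

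**Figure D4:**
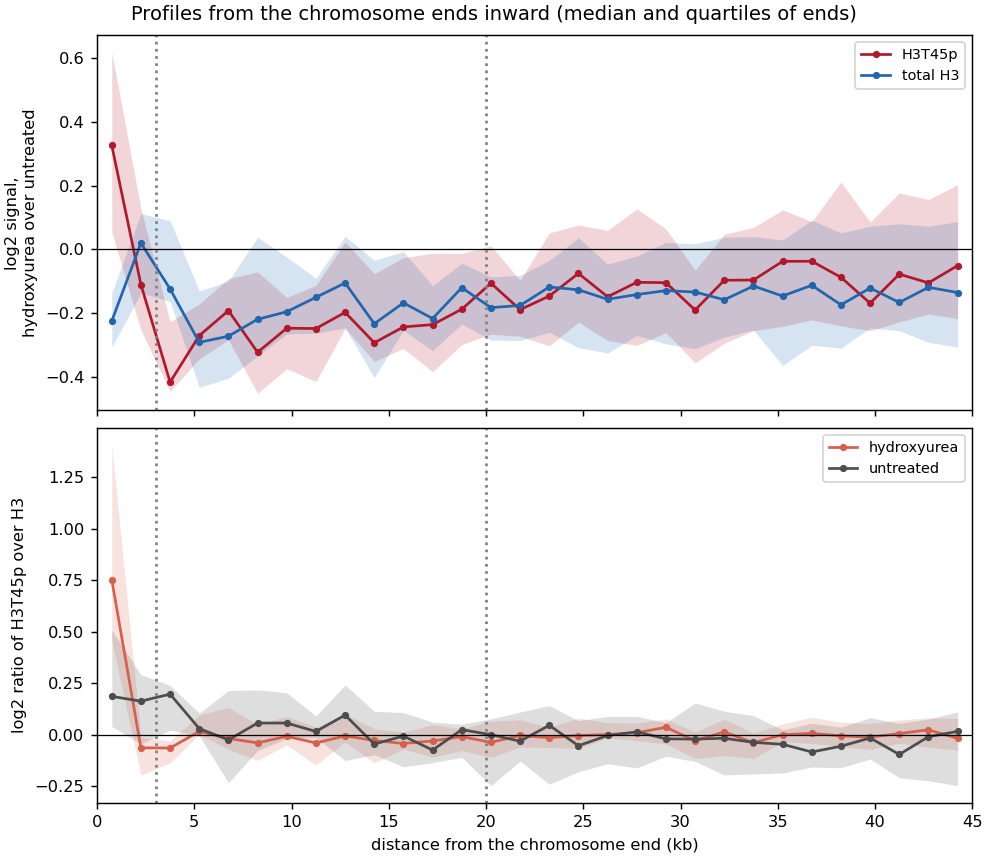
Medians (points) and quartiles (shading) over chromosome ends in steps of 1.5 kb against the distance from the end in kb, with dotted lines at 3 and 20 kb. The upper panel shows the log2 difference of H3T45p (red) and H3 (blue), hydroxyurea over untreated, and the lower panel the log2 ratio of H3T45p over H3 in hydroxyurea (orange) and untreated cells (grey); the difference of H3T45p is -0.42 in the step that starts at 3 kb and -0.11 in the step that starts at 19.5 kb.

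In the interior the untreated ratio, the difference of the ratio and the H3T45p difference moved steadily with the H3 level. The hydroxyurea ratio and the H3 difference did not move steadily with it. Subtelomeres hold a larger share of windows of low H3. Kept windows were therefore divided into 10 classes of H3 signal. The lowest class held 18.4% of kept subtelomeric windows and 9.63% of kept interior windows. In the lowest class the difference of the ratio had a median of -0.36 at subtelomeres and -0.26 in the interior, and in the highest class 0.40 at subtelomeres and 0.46 in the interior. Within every class the subtelomeric windows had the lower H3T45p difference, by 0.17 to 0.29, and the lower H3 difference, by 0.06 to 0.17. Within every class the difference of the ratio was lower too, by 0.01 to 0.10. The untreated ratio was higher at subtelomeres in all 10 classes, by 0.01 to 0.07. With the median of each class subtracted, the distance of the ends from their interior was -0.23 for H3T45p, -0.17 for H3 and -0.04 for the difference of the ratio. The classes rest on the same H3 signals as the ratios. The value of an end was a ratio of mean signals, while the subtracted values were averages of class medians of single windows. Unlike measures were thus combined, and how much of a distance goes with the H3 level cannot be read from the subtraction.

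**Figure D5:**
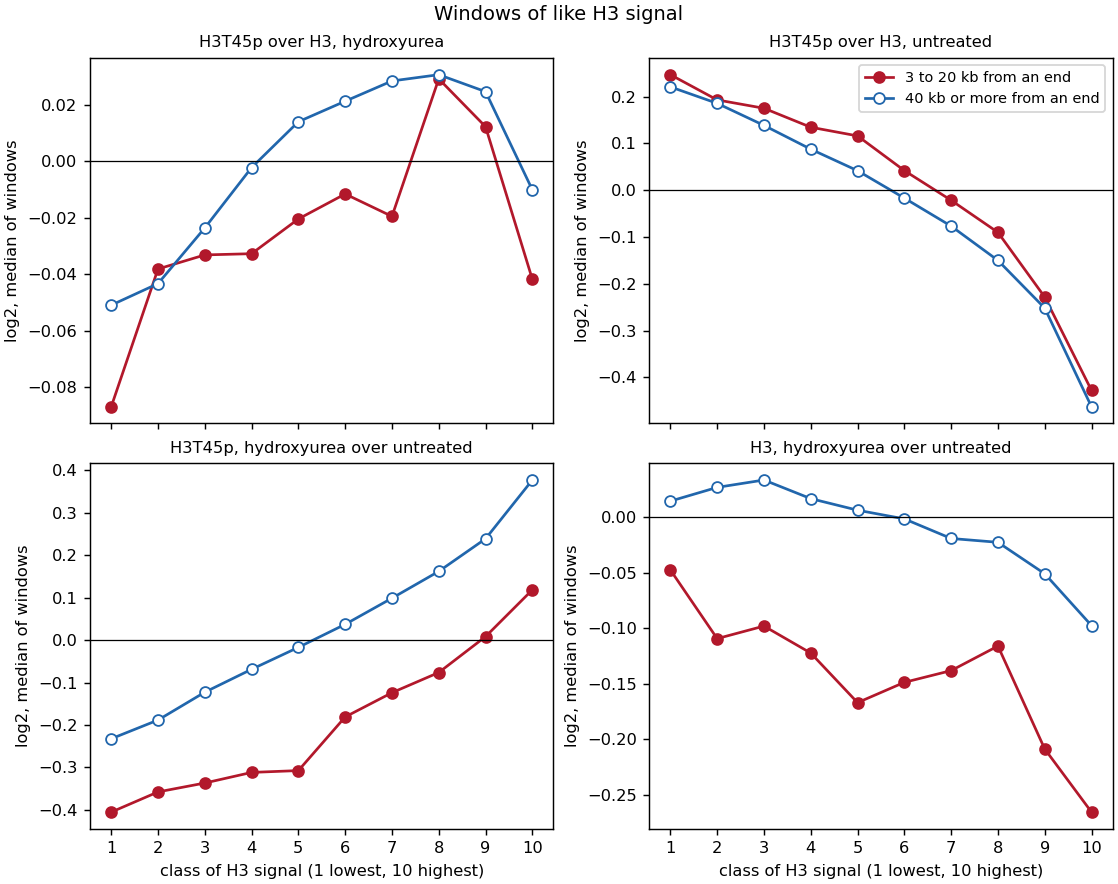
Medians of kept windows in 10 classes of H3 signal (horizontal axis, lowest to highest) for windows 3 to 20 kb from an end (filled red) and the interior (open blue). The panels show, on log2 scales that differ between panels, the ratio of H3T45p over H3 in each condition, and the H3T45p and H3 differences, hydroxyurea over untreated; red points lie under the blue ones in all 10 classes in both lower panels.

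Single stretches were examined in blocks of 10 windows (1.5 kb). Of 325 subtelomeric blocks, 229 had 3 or more kept windows, and a block was counted where a log2 value reached 0.5 in either direction. For H3T45p, 12 subtelomeric blocks (5.24%) were lower in hydroxyurea by that size, where 1.05% of all 7697 blocks of the genome and 0.689% of interior blocks were. Only 5 (2.18%) were higher, where 6.16% of all blocks and 5.93% of interior blocks were. Of the 12 lower blocks 4 lay at the left end of chromosome 1 and 2 at the right end of chromosome 12, and of the 5 higher blocks 4 lay at the right end of chromosome 9. H3 was lower by that size in 13 blocks (5.68%), where 3.05% of all and 2.97% of interior blocks were, and higher in 0, where 1.03% of all blocks were.

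For the difference of the ratio, 8 subtelomeric blocks (3.49%) were higher, where 5.60% of all and 5.51% of interior blocks were. On the lower side there were 6 (2.62%), where 0.364% of all and 0.161% of interior blocks were. The lower calls were near the threshold. With the pseudocount raised to 50% of the median none of the 6 calls was made. The same held with the H3 filter at 50% (205 blocks) or with the H3 class median subtracted. Shares of all blocks at these settings are not given, so the fall to 0 cannot be set against the genome. With signals scaled to total nuclear reads there were 23 (10.0%), where 2.14% of all and 1.55% of interior blocks were. On the higher side that scale gave 4 (1.75%), where 1.95% of all blocks were. In untreated cells 2 blocks (0.873%) had a ratio of 0.5 or more, where 0.169% of all blocks did, and 4 (1.75%) had -0.5 or less, where 2.59% of all did. In hydroxyurea 4 blocks (1.75%) had 0.5 or more, where 1.43% of all did, and 0 had -0.5 or less, where 0.013% of all did.

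Of the 10 blocks with the highest difference of the ratio, 6 held 2 or 3 windows under hydroxyurea H3T45p peaks of the authors. The peaks come from the same libraries as the ranked ratio, which favours such an overlap. The share of all blocks that hold a peak is not given. All 6 had less H3 in hydroxyurea and 5 of them more H3T45p. At chromosome 12 from 10501 to 12000, H3T45p was 1002 in hydroxyurea against 650 in untreated cells, and H3 284 in hydroxyurea against 425 in untreated cells, for a difference of 1.14 with a SD of 0.51 over 4 kept windows. At chromosome 8 from 556501 to 558000, H3T45p was 1515 in hydroxyurea against 1102 in untreated cells, and H3 432 in hydroxyurea against 615 in untreated cells, for a difference of 0.93 (SD 0.49 over 3 windows). These blocks also had the highest ratios of all subtelomeric blocks in each condition: 1.72 in hydroxyurea against 0.58 in untreated cells for chromosome 12, and 1.75 in hydroxyurea against 0.81 in untreated cells for chromosome 8. The ratios of their kept windows varied by more than that. The SD was 2.02 in hydroxyurea and 1.63 in untreated cells for chromosome 12. For chromosome 8 it was 2.33 in hydroxyurea and 1.95 in untreated cells.

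The block at chromosome 14 from 6001 to 7500 (0.83) was of the same kind, with H3T45p at 678 in hydroxyurea against 619 in untreated cells and H3 at 304 in hydroxyurea against 515 in untreated cells. Smaller differences in blocks with windows under peaks stood at 1524001 to 1525500 of chromosome 4 (0.59), 915001 to 916500 of chromosome 13 (0.57) and 4501 to 6000 of chromosome 6 (0.49). The block at chromosome 6 from 255001 to 256500 had the fourth highest ratio in hydroxyurea (0.58, against 0.17 in untreated cells). With windows under peaks left out, 3 of 227 subtelomeric blocks were counted as higher in place of 8 of 229. The share of all blocks at that setting is not given, so the fall cannot be set against the genome.

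Other blocks differed with no peak in them. At chromosome 5 from 570001 to 571500, H3T45p was nearly the same, 741 in hydroxyurea against 762 in untreated cells, while H3 was 632 in hydroxyurea against 1239 in untreated cells, for a difference of 0.90 (SD 0.11 over 3 windows). Chromosome 13 from 910501 to 912000 had 612 in hydroxyurea against 562 in untreated cells for H3T45p, and 563 in hydroxyurea against 799 in untreated cells for H3 (difference 0.60, SD 0.32 over 10 windows). The blocks at 13501 to 15000 of chromosome 16 (0.51) and 18001 to 19500 of chromosome 10 (0.48) completed the 10 highest. In all 4 of these blocks H3 was lower in hydroxyurea.

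The 10 blocks with the lowest difference had another form. In all of them H3T45p was lower in hydroxyurea, none lay under a peak, and H3 was higher in hydroxyurea in 7 and lower in 3. The ranking itself favours such forms among the highest and the lowest blocks, since the ranked value is the H3T45p difference less the H3 difference. At chromosome 13 from 7501 to 9000, H3T45p was 124 in hydroxyurea against 203 in untreated cells, and H3 171 in hydroxyurea against 166 in untreated cells (difference -0.65, SD 0.26 over 3 windows). At chromosome 11 from 652501 to 654000, 10 kept windows gave 149 in hydroxyurea against 198 in untreated cells for H3T45p, and 158 in hydroxyurea against 136 in untreated cells for H3 (difference -0.54, SD 0.27). The left end of chromosome 1 held 3 of the 10, from 3001 to 4500 (-0.53), from 4501 to 6000 (-0.40) and from 6001 to 7500 (-0.50).

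In the first of these at chromosome 1, H3T45p was 165 in hydroxyurea against 234 in untreated cells, and H3 169 in hydroxyurea against 157 in untreated cells. The others were 3001 to 4500 of chromosome 11 (-0.61), 6001 to 7500 of chromosome 6 (-0.57), 3001 to 4500 of chromosome 7 (-0.49), 777001 to 778500 of chromosome 14 (-0.41) and 1059001 to 1060500 of chromosome 12 (-0.41). All 10 had H3 signals of 122 to 256 in both conditions, under the interior median. Most were in the lowest class of H3 among blocks. For single windows of the lowest class, the interior median of the difference was already -0.26. The block at chromosome 6 from 6001 to 7500 lay beside the block with a peak that starts at 4501, so neighbouring blocks at the same end differed in direction.

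Among the lowest ratios, chromosome 1 from 222001 to 223500 had the lowest in untreated cells (-0.80, against -0.33 in hydroxyurea), with 3 kept windows. Chromosome 11 from 646501 to 648000 had -0.15 in hydroxyurea against -0.54 in untreated cells, with H3 at 710 in hydroxyurea against 847 in untreated cells. Chromosome 9 from 421501 to 423000 had -0.05 in hydroxyurea against -0.52 in untreated cells, with H3T45p at 895 in hydroxyurea against 547 in untreated cells. In hydroxyurea the lowest ratios also included 10501 to 12000 of chromosome 14 (-0.31) and 1518001 to 1519500 of chromosome 4 (-0.28).

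The authors' H3T45p peak lists, which give positions without a score, placed few but strong peaks in subtelomeres. Of 630 peaks in the hydroxyurea list, 13 (2.06%) overlapped subtelomeric windows, at 12 ends. Of 87 peaks in the untreated list, 9 (10.3%) did, at 8 ends. All 9 untreated peaks overlapped a hydroxyurea peak, and 9 of the 13 hydroxyurea peaks (69.2%) overlapped an untreated one. Peaks in hydroxyurea covered 30 subtelomeric windows, 0.877% of them (exact binomial interval 0.593 to 1.25%), against 1.56% of interior windows and 1.49% of all nuclear windows. Peaks in untreated cells covered 18, 0.526% (0.312 to 0.831%), against 0.117% of interior windows and 0.159% of all. Over all windows, subtelomeres were less covered than the interior in the hydroxyurea list and more covered in the untreated list. The intervals cover counting error only and treat neighbouring windows of 1 peak as independent. The shares also count windows at 0 in all 4 libraries, 24.9% at subtelomeres and 2.45% in the interior, where no peak can be seen. Whether the lower coverage in the hydroxyurea list holds among windows with reads was not tested. With peaks of 1 window left out, the hydroxyurea shares were 0.848% at subtelomeres (0.569 to 1.22%) and 1.19% in the interior (1.11 to 1.27%), and these intervals overlap. The untreated shares then were 0.497% at subtelomeres (0.290 to 0.795%) and 0.0668% in the interior (0.0491 to 0.0888%).

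Under the hydroxyurea peaks the H3T45p signal of subtelomeric windows had a median of 910 in hydroxyurea against 568 in untreated cells, where interior windows under peaks had 295 in hydroxyurea against 145 in untreated cells. H3 was low in both places, with 68.0 in hydroxyurea against 99.0 in untreated cells at subtelomeres, and 58.9 in hydroxyurea against 86.7 in untreated cells in the interior. In hydroxyurea 27 of the 30 subtelomeric windows had more H3T45p and 28 had less H3, much as in the interior, where 1057 of 1099 windows under these peaks had more H3T45p and 952 had less H3. The hydroxyurea list comes from the same H3T45p library, so it can itself favour windows with high H3T45p in hydroxyurea. Whether H3 entered the peak calls is not given. The counts therefore describe the listed windows only. The H3 filter kept 15 of these 30 windows and 5 of the 18 under untreated peaks. The averages over ends above therefore contain only part of the peak signal.

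The 9 sites shared by both lists lay 4.5 to 12.9 kb from an end. The widest were 450 bp in the hydroxyurea list. At chromosome 12 from 11101 to 11550 the mean H3T45p signal was 1805 in hydroxyurea against 936 in untreated cells, over H3 of 202 in hydroxyurea against 304 in untreated cells. At chromosome 8 from 556651 to 557100 it was 1803 in hydroxyurea against 1150 in untreated cells, over H3 of 200 in hydroxyurea against 288 in untreated cells. At chromosome 12 from 1064851 to 1065300 it was 1351 in hydroxyurea against 953 in untreated cells. These 3 sites had 5.87 to 9.03 times as much H3T45p as H3 in hydroxyurea and 2.49 to 3.99 times as much in untreated cells.

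The site at chromosome 6 from 4501 to 4950 was called with the same borders in both lists and had H3T45p at 1079 in hydroxyurea against 650 in untreated cells, over H3 of only 75.8 in hydroxyurea against 116 in untreated cells. The site at chromosome 4 from 1525201 to 1525650 had 945 in hydroxyurea against 504 in untreated cells. Narrower shared sites, at 5551 to 5850 of chromosome 12 and 5401 to 5700 of chromosome 13, reached 1098 and 1119 in hydroxyurea and 707 and 643 in untreated cells, over H3 signals under 50 in both conditions. The shared site at chromosome 14 from 6451 to 6750 had 989 in hydroxyurea against 549 in untreated cells. The weakest, at chromosome 5 from 6151 to 6450, had 251 in hydroxyurea against 163 in untreated cells. All 9 had more H3T45p in hydroxyurea, at sites chosen by lists from these same libraries.

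The 4 sites listed only in hydroxyurea had less H3T45p than 8 of the 9 shared sites. At chromosome 16 from 927901 to 928350 H3T45p was 344 in hydroxyurea against 330 in untreated cells, while H3 was 116 in hydroxyurea against 408 in untreated cells. At chromosome 13 from 915151 to 915450 H3T45p was 328 in hydroxyurea against 186 in untreated cells, and H3 82.0 in hydroxyurea against 219 in untreated cells. At chromosome 6 from 255451 to 255750 H3T45p was 212 in hydroxyurea against 264 in untreated cells, and H3 75.2 in hydroxyurea against 217 in untreated cells. At chromosome 8 from 17701 to 17850 H3T45p was 127 in hydroxyurea against 180 in untreated cells, and H3 40.8 in hydroxyurea against 137 in untreated cells. At all 4 H3 was lower in hydroxyurea, and at the last 2 H3T45p was lower as well. Being listed in hydroxyurea alone, from these same libraries, can itself favour sites of this form. The directions are therefore no separate result.

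Without reference to the peak lists, windows with 50 or more reads were counted where one signal was at least 2 times the other. In hydroxyurea 54 of 2381 subtelomeric windows (2.27%) had H3T45p at 2 times H3 or more, against 3.03% of interior windows and 2.93% of all. In untreated cells 50 of 2416 (2.07%) did, against 0.968% of interior windows and 1.05% of all. The opposite excess, H3 at 2 times H3T45p or more, was found in 24 windows (1.01%) in hydroxyurea, against 0.620% of interior windows and 0.648% of all, and in 6 (0.248%) in untreated cells, against 0.269% of interior windows and 0.290% of all. With the deposited factors, the share of subtelomeric windows rich in H3T45p was thus about the same in both conditions. The share in the interior was 3.03% in hydroxyurea and 0.968% in untreated cells. A fixed cutoff compared between conditions depends on the scale. Scaling to total nuclear reads shifts the median difference of the ratio over all windows by -0.17, and no such window counts at that scale are given.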

How the data were processed

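ChIP-seq was done on sonicated, crosslinked chromatin, per the labels' protocols. The authors deposited a signal per window of 150 bp for each library, and their H3T45p peak lists give positions without a score. Within each library 100% of values were whole multiples of the value of 1 read, to within 0.001 of a read. The deposited signal is therefore the authors' read count per window over 1 factor per library. The submitters' processing notes list BWA 0.5.9-r16 and DESeq, with no role for either. Neither the build nor how peaks were called is given in the sources used here. The authors' difference tracks were not used.

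Windows entered ratios where H3 was at least 25% of the library's genome median (69.3 in hydroxyurea, 69.9 untreated). Signals were averaged over kept windows of an end, band or block before the log2, with 28.3 added. Blocks needed 3 kept windows, and 0.5 on the log2 scale was the size rule. Intervals are exact (Clopper-Pearson) at 95%. Reads are not independent molecules, so they cover counting error only. No count model was run, because 1 library in each group leaves no residual degrees of freedom. The steps were tested on simulated data.

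The members and lists were chosen with earlier results of these data known. The named regions are the 5 ends and 5 blocks with the highest and lowest ratio in each condition, the 5 ends and 10 blocks with the highest and lowest difference of the ratio, and the 5 widest peaks of each list, ties kept. The remaining peaks, and ends with extreme differences of 1 signal, were named after their values were seen. The distance bands, H3 classes and odd and even windows describe the same libraries. The R64 gene table served only for names and gene order. Python 3.11.15, numpy 2.4.6, pandas 2.3.3, scipy 1.17.1 and matplotlib 3.10.9 were used.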

Additional observations from a re-analysis of the deposited data

How the results depend on the processing

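With 1 library per group no replicate could be left out, and no difference has a replicate check. No paired analysis was possible because the groups compared share fewer than 2 replicate numbers. Values here are medians over ends on the log2 scale unless said otherwise, and a distance is an end minus its own interior. The medians of the H3T45p and H3 differences stayed below 0, and their distances below the interior, under each alternative run for them. With the pseudocount raised to 50% of the median, the untreated ratio was -0.025, the difference of the ratio 0.034, the H3T45p difference -0.15 and the H3 difference -0.14. The distances then were -0.093 (ratio), -0.24 (H3T45p) and -0.12 (H3), with 5 of 229 blocks higher and 0 lower. With no filter on H3 the ratio was 0.0078 in hydroxyurea and -0.018 untreated, and its difference 0.035. The distances were -0.15 (ratio) and -0.15 (H3), and 14 of 261 blocks were higher. With the H3 filter at 50% the untreated ratio was -0.068, its difference 0.068, H3T45p -0.17 and H3 -0.21. The distances were -0.15 (ratio) and -0.33 (H3T45p), with 5 of 205 blocks higher and 0 lower. With signals scaled to total nuclear reads the ratio was -0.046 in hydroxyurea and 0.093 untreated, its difference -0.12, H3T45p -0.32 and H3 -0.15, with 7 ends higher, 4 blocks higher and 23 lower. With the mean of the log2 ratios of windows the ratio was -0.025 in hydroxyurea and 0.049 untreated, its difference -0.087 with 9 ends higher, H3T45p -0.28, H3 -0.14, and the distances -0.16 (ratio) and -0.13 (H3). With the H3 class median subtracted the untreated ratio was -0.080, its difference 0.10, H3T45p -0.15, and the distances -0.045 (ratio), -0.23 (H3T45p) and -0.17 (H3), with 0 blocks lower. Without the interior and ends of chromosome 12 the distances were -0.14 (ratio), -0.33 (H3T45p) and -0.17 (H3). The cause of these shifts was not tested. Except at the scale of total nuclear reads, shares of all blocks at these settings are not given. The block counts here therefore describe subtelomeric blocks only.

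The alternatives below, and the distances of each signal, were chosen after seeing the data. At the 20 ends with 50 or more kept windows the ratio was -0.018 in hydroxyurea and -0.021 untreated, its difference 0.0076 with 10 ends higher, and the distances -0.20 (ratio), -0.34 (H3T45p) and -0.15 (H3), with 17 ends below their interior for H3. Without windows under peaks the ratio was -0.022 in hydroxyurea and -0.044 untreated, and its difference 0.014. H3T45p was -0.21, and the distances were -0.16 (ratio) and -0.33 (H3T45p). Then 28 of 30 ends lay below their interior for H3T45p, and 3 of 227 blocks were higher. The sign of the difference of the ratio thus depended on the scale and on how windows are averaged, while its place below the interior did not. Leaving out windows covered under 50% changed no peak share. Leaving out peaks of 1 window moved the subtelomeric shares within their counting intervals, and the interior shares outside theirs, to 1.19% in hydroxyurea and 0.0668% in untreated cells. Depth limits little here except at ends with few kept windows.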

Other observations

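The 509 subtelomeric windows that had reads but too little H3 for a ratio carried little of either signal. The median for H3T45p was 33.0 in hydroxyurea against 46.8 in untreated cells, and that for H3 was 34.4 in hydroxyurea against 36.4 in untreated cells. Among them were 15 windows under the authors' hydroxyurea peaks and 13 under the untreated peaks, so the windows set aside hold both some of the weakest and some of the strongest H3T45p signals of the subtelomeres.

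Across kept windows, which are not independent, H3T45p followed H3 at subtelomeres nearly as closely as elsewhere. The Spearman correlation over 2059 subtelomeric windows was 0.94 in both hydroxyurea and untreated cells, and over 62982 interior windows it was 0.94 in hydroxyurea against 0.96 in untreated cells.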
